A study of Mus musculus with 8 samples.

Results

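The genes here are Vwf, the selectins Selp and Sele, and the immunoglobulin-type adhesion molecules Icam1, Icam2, Vcam1 and Madcam1, with the interleukin-1 receptor Il1r1. With all of these but Il1r1, blood vessel lining cells hold platelets or stop passing white blood cells. All 8 were taken by name from the 55401 gene identifiers in the deposited counts. Each was found and passed the low-count filter that left 18882 genes to test. The counts come from RNA sequencing of mouse lines of a rare endothelial tumour, epithelioid hemangioendothelioma (EHE). They hold RNA only, and where a protein is named below, the level given is that of its RNA. There were 3 libraries of the line EHE6, 3 of EHE17 and 2 of EHE26. The labels give only the name of the line for each library; the alleles the lines carry, any treatment, passage, sex or mouse of origin, and whether each line is 1 clone, are not given in the sources used here. In people most such tumours carry a fusion of the genes for TAZ and CAMTA1. No line is labelled as a control, so each line was compared with each other line. Nothing in the labels says that replicates came from separate cultures, and p-values then measure only the spread between these libraries, which may be technical.

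White blood cells leave the blood in steps. E-selectin (Sele) and P-selectin (Selp) on the vessel wall bind sugar-bearing ligands and let the cells roll, and ICAM-1, ICAM-2 and VCAM-1 (Icam1, Icam2, Vcam1) then bind leukocyte integrins and hold them, while MAdCAM-1 (Madcam1) does this in venules of the gut. Von Willebrand factor (Vwf) tethers platelets and is stored with P-selectin in the Weibel-Palade bodies of endothelial cells, from which both are released within minutes of a stimulus. Interleukin-1 acts through Il1r1 on NF-kappaB, a transcription factor under which endothelium makes E-selectin, ICAM-1 and VCAM-1.

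Promoters of Selp, Sele and Icam1 are shown because these 3 genes, all induced by cytokines in mouse endothelium, each had 1 library far from the others of its line. The RefSeq promoter table (GRCm38.p6) matched 5 of the 8 genes; Vwf, Icam2 and Vcam1 were not among them. Each sequence is the 250 bases before the RefSeq start, plus strand, 5′ to 3′. Selp lies at chr1:164115014-164115263, Sele at chr1:164047984-164048233 and Icam1 at chr9:21015690-21015939. Capitals mark a kappaB-like match (GGNNNTTCC) or an AP-1 match (TGANTCA) on either strand; none of these matches overlap each other.
Selp: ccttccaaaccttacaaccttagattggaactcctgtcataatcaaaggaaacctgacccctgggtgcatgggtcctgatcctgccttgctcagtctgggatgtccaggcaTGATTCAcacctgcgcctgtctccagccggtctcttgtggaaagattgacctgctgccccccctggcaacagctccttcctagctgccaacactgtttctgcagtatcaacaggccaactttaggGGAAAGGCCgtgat
Sele: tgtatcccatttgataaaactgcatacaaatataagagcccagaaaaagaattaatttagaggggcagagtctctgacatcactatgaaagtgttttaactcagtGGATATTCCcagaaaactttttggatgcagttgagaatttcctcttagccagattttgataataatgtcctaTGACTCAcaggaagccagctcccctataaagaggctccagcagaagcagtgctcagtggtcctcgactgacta
Icam1: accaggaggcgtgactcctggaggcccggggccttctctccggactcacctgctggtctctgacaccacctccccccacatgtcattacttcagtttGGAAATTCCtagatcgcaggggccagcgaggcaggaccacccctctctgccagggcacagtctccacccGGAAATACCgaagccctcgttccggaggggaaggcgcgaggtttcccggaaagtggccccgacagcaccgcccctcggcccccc
The Selp window held a kappaB-like match 14 to 6 bases before the start and an AP-1 match 139 to 133 bases before it. The Sele window had the same pair in the other order, the kappaB-like match at 145 to 137 and the AP-1 match at 73 to 67 bases. Icam1 had 2 kappaB-like matches, at 153 to 145 and at 84 to 76 bases, and no AP-1 match. Of all 32851 windows in the table, 15.7% held a kappaB-like match and 6.75% an AP-1 match. The interferon-stimulated response element, on either strand (in 2.98% of windows), and the TEAD letters (GGAATG, in 12.6%) did not occur in these 3 windows. Of the windows not shown, that of Madcam1 held 2 kappaB-like matches, and 1 of the 2 of Il1r1 held a kappaB-like match that overlaps the first of 2 TEAD matches. These are matches of letters, and binding was not measured.

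The 8 libraries held 44620965 to 96237665 counts and fell into 2 sets that crossed the line labels. Replicates 1 and 2 of EHE6 and of EHE17 formed a first set, and replicate 3 of each with both EHE26 libraries a second, along a first principal component holding 56.2% of the variance. The first set had 24462 to 25177 genes with a read and the second 20066 to 20682. The labels give no batch, the sets were read from the data, and EHE26 lies wholly in the second set, so that set and line cannot be told apart for EHE26 without the lone replicate 3 of EHE6 and of EHE17. All 12 endothelial marker genes had reads in all 8 libraries; their summed level was 12394 to 15375 CPM (counts scaled to a fixed library size) in the first set and 3628 to 7946 CPM in the second. A fall in such a level in bulk RNA cannot tell fewer cells of a type from less RNA per cell. The leukocyte list summed to 20.7 to 36.3 CPM in EHE6, 28.2 to 71.0 in EHE17 and 41.3 to 45.6 in EHE26. Ptprc, which marks white blood cells, was at no more than 1.49 CPM and Cd3e at 0 in 6 of 8 libraries. Lyz2 was higher, at 13.7 to 37.2 CPM, and Cd68 reached 29.5 CPM in EHE17 replicate 3. In EHE6 replicate 3, 9 of the 12 leukocyte markers were above and 0 below both other EHE6 libraries. The platelet list summed to 12.9 to 51.1, 9.05 to 51.1 and 18.8 to 21.2 CPM in EHE6, EHE17 and EHE26, most of it Itga2b (7.64 to 50.1 CPM). Nfe2 reached 3.62 CPM and Pf4 1.55 CPM, and Gp1bb was at 0 in all 8 libraries. The fibroblast and mural list summed to 494 to 1105, 1124 to 1811 and 470 to 1186 CPM, and the epithelial list to 23.0 to 89.8, 1.08 to 29.7 and 3.09 to 28.6 CPM. Epcam was at 0 in 3 libraries. Krt18 made nearly all of the epithelial sum in EHE6 replicate 3 (89.2 of 89.8 CPM) and in EHE26 replicate 2 (28.3 of 28.6 CPM). In EHE6 replicate 3, 1 of the 6 epithelial markers was above and 5 below both other EHE6 libraries.

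Per length of transcript, Icam2 and Selp were the most abundant of the 8 genes and Vwf and Madcam1 the least. In RPKM, which is CPM per kilobase of exon, the mean over all libraries was 68.3 for Icam2, 53.2 for Selp, 24.3 for Icam1, 19.98 for Sele, 16.4 for Il1r1, 16.0 for Vcam1, 0.398 for Vwf and 0.102 for Madcam1. Icam2 led in replicates 1 and 2 of EHE6 and in all 3 EHE17 libraries. Sele led in EHE6 replicate 3, Vcam1 in EHE26 replicate 1 and Selp in EHE26 replicate 2. On this length the leading gene thus differed between libraries of 1 line in EHE6 and EHE26. Taken per length of the longest coding transcript, the Vcam1 mean is 2.56 times as high and moves from the sixth place to the fourth. Icam2 is then 1.49 times and Selp 1.28 times as high, with Sele unchanged. That puts Icam2 first in EHE6 replicate 3 and Vcam1 about level with Selp in EHE26 replicate 2. The difference in leading gene within a line therefore rests on the length chosen.

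**Figure D1:**
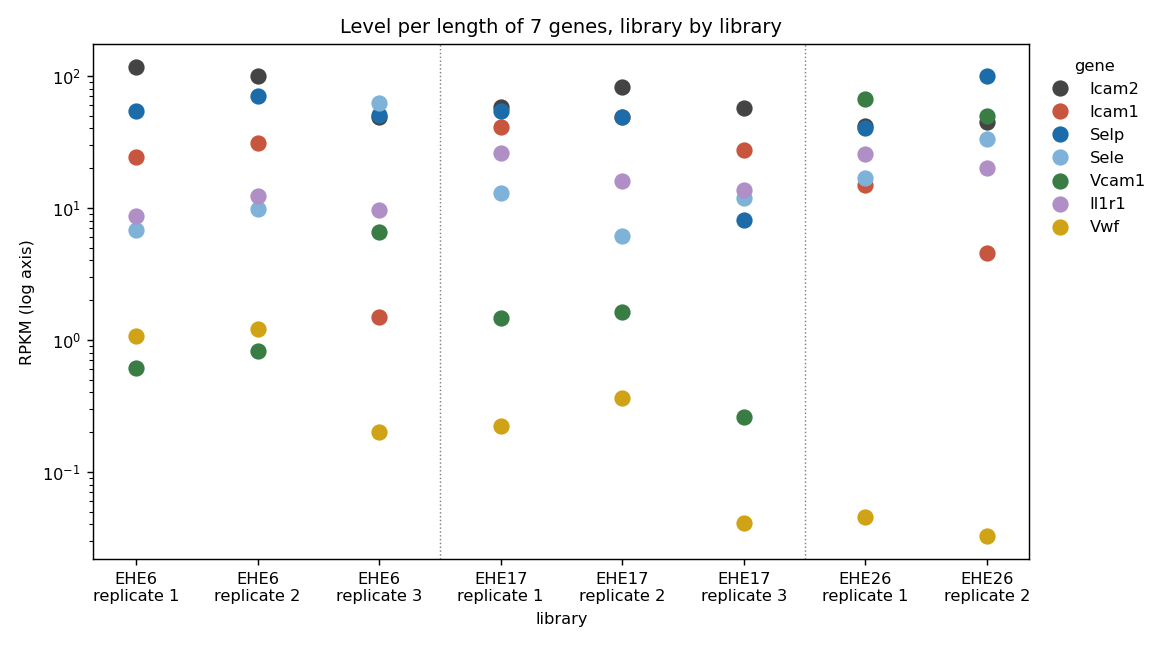
Level per length (RPKM, log axis) of 7 of the genes in each of the 8 libraries; each point is 1 gene in 1 library and dotted lines part the 3 lines. Icam2 stays between 41.5 and 116 RPKM throughout, Vwf lies at or near the bottom, and Vcam1 is at 66.9 and 49.7 RPKM in the EHE26 libraries and at most 6.54 RPKM elsewhere.

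In none of the 3 comparisons did any of the 8 genes pass the test (edgeR quasi-likelihood, Benjamini-Hochberg adjusted p under 0.05 and a log2 fold change of at least 1 in size). The background was low too, 0.143% of all tested genes called in EHE17 against EHE6, 1.26% in EHE26 against EHE6 and 1.08% in EHE26 against EHE17. An unadjusted p under 0.05 was reached by 2, 4 and 2 of the 8 genes, against 6.9%, 15.9% and 16.6% of all genes. DESeq2, which called 2.1%, 8.39% and 8.92% of all genes, called 0, 2 and 0 of them, the 2 being Vwf and Il1r1 in EHE26 against EHE6, and gave no adjusted p for Vcam1. Lines did not overlap for 2 genes (Madcam1, Il1r1), 4 (Vwf, Icam2, Vcam1, Il1r1) and 5 (Sele, Icam1, Icam2, Vcam1, Madcam1), against 12.2%, 31.3% and 39% of all genes. The median log2 fold change of the 8 was -0.54, -0.23 and -0.15, against -0.03, -0.11 and -0.11 over all tested genes. The comparisons share libraries, so their results are not independent.

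**Figure D2:**
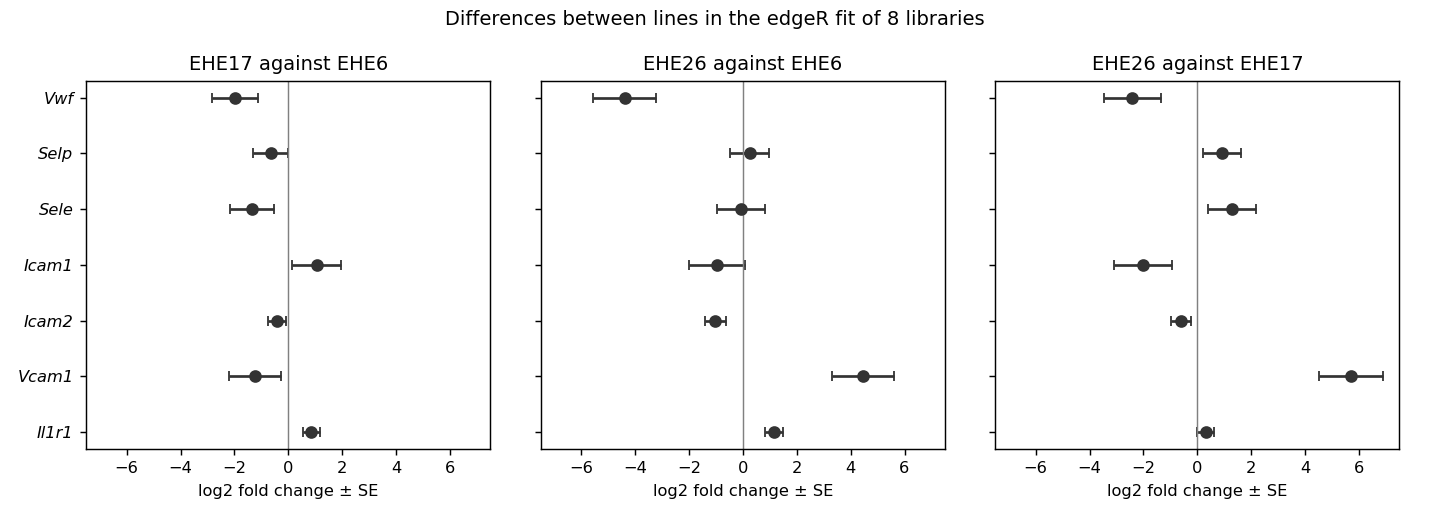
Log2 fold change between lines with its standard error for 7 genes in each of the 3 comparisons, from the edgeR fit of all 8 libraries; points right of 0 are higher in the line named first. Vcam1 lies at 4.45 and 5.70 in the EHE26 comparisons and Vwf at -4.39 and -2.41. The next in size of these 7 genes is Icam1 at -2.01 in EHE26 against EHE17. The scarce Madcam1 is not drawn, and had 3.08 in EHE17 against EHE6, -0.39 in EHE26 against EHE6 and -3.47 in EHE26 against EHE17.

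RNA for VCAM-1, which holds leukocytes through the integrin alpha-4 beta-1, stood far higher in both EHE26 libraries than in any other library. The main test did not call the difference. Vcam1 (ENSMUSG00000027962, GRCm38 chr3:116109949-116129688, minus strand) stood at 594 and 441 CPM in the EHE26 libraries. In EHE6 it stood at 5.47, 7.35 and 58.0 CPM and in EHE17 at 13.0, 14.5 and 2.33 CPM. Both EHE26 libraries lay above all others, the nearer one 7.60 times the highest EHE6 library and 30.3 times the highest EHE17 library. The mean was 517 ± 108 CPM (SD, n = 2) in EHE26, 23.6 ± 29.8 (n = 3) in EHE6 and 9.94 ± 6.64 (n = 3) in EHE17, and the lowest and highest library differed 255-fold, the widest range of the 7 genes with reads throughout.

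The Vcam1 log2 fold change was 5.70 ± 1.20 (SE) in EHE26 against EHE17 (edgeR, adjusted p = 0.0796) and 4.45 ± 1.14 against EHE6 (adjusted p = 0.140). The larger of these ranked 337 by p among the tested genes. Without EHE6 replicate 3 the differences were 5.70 (adjusted p = 0.00463) and 6.33 (adjusted p = 0.00833), and with all 8 libraries but no low-count filter 5.69 (adjusted p = 0.00276) and 4.43 (adjusted p = 0.0126), so that both were called. In the second set of libraries alone, where EHE6 and EHE17 have 1 library each and are assumed to vary like EHE26, they were 7.80 (adjusted p = 0.00555) and 3.15 (adjusted p = 0.0153); with the set as a term they were 4.40 (adjusted p = 0.264) and 4.08 (adjusted p = 0.194). Between EHE17 and EHE6 the sign itself turned with the set: the Vcam1 log2 fold change was 1.11 in the first set and -4.64 in the second (adjusted p = 0.0131), with -1.24 ± 0.97 over all libraries (adjusted p = 0.973). Pdgfra, a fibroblast and mural marker, was also high in these libraries, 252 CPM in EHE6 replicate 3 and 77.5 and 59.8 CPM in EHE26 against 1.14 to 5.21 CPM in the other 5. The list of 12 such markers did not follow as a whole. In EHE6 replicate 3, 4 of them were above and 8 below both other EHE6 libraries. Besides Pdgfra, those above were Pdgfrb, Cspg4 and Rgs5. Pdgfrb was at 22.0 CPM there, at 63.0 and 28.9 CPM in EHE26 and at 0.401 to 2.14 CPM in the other 5. Cspg4 was at 2.02, 18.5 and 24.5 CPM against 0.0803 to 0.607 CPM. Rgs5 was at 183, 7.30 and 67.5 CPM against 0.221 to 9.92 CPM. Among those below, Thy1 was at 8.80 against 398 and 349 CPM. The summed level was the lowest of EHE6 (494 against 1105 and 678 CPM). The part of such markers in the Vcam1 level was not tested.

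**Figure D3:**
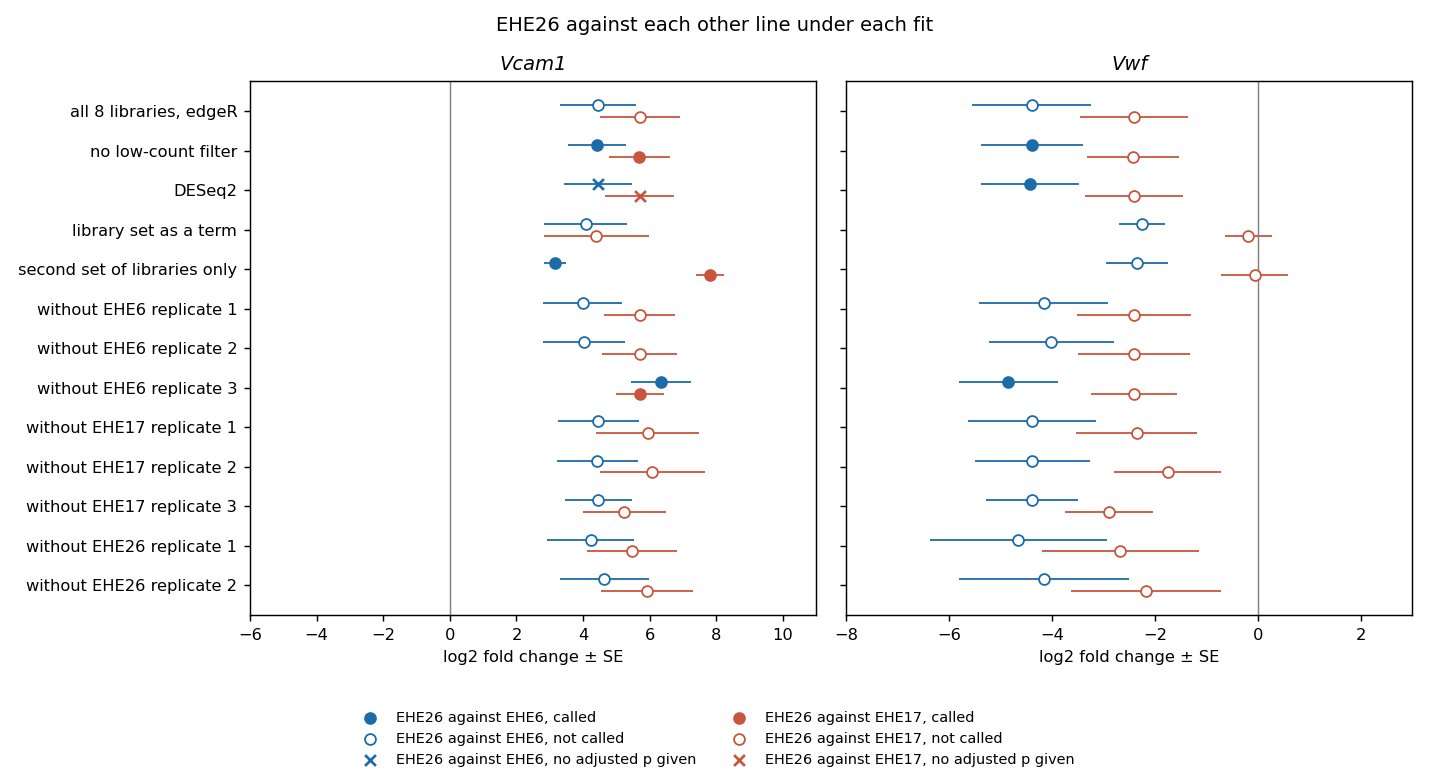
Log2 fold change with standard error of Vcam1 (left) and Vwf (right) in EHE26 against EHE6 (blue) and against EHE17 (red). Each fit that holds EHE26 has 1 row, except the replicate block, which is not drawn. Filled points passed the test, open points did not and crosses had no adjusted p. Vcam1 is at 3.15 or more in every row shown and Vwf against EHE17 goes from -2.41 over all libraries to -0.06 in the second set alone.

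RNA for von Willebrand factor, the platelet-tethering protein that shapes the Weibel-Palade body, was sparse in all 3 lines and had its lowest mean in EHE26. Vwf (ENSMUSG00000001930, chr6:125546774-125686679, plus strand) stood at 17.2, 19.4 and 3.24 CPM in EHE6, at 3.60, 5.80 and 0.662 CPM in EHE17 and at 0.736 and 0.526 CPM in EHE26. All EHE6 libraries lay above both of EHE26, the nearest by 4.40 times, while EHE17 replicate 3 fell between the EHE26 values. In each of EHE6 and EHE17 replicate 3 was the low one, 5.66 and 7.10 times under the mean of the other two. The summed endothelial markers were also lower there, 3628 and 7946 CPM against 12394 to 15375 CPM in the first set, and their part in the Vwf level was not tested. The means were 13.3 ± 8.78 CPM (SD, n = 3), 3.36 ± 2.58 (n = 3) and 0.631 ± 0.148 (n = 2).

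Vwf differed by -4.39 ± 1.15 on the log2 scale in EHE26 against EHE6 (edgeR, adjusted p = 0.151), -2.41 ± 1.04 in EHE26 against EHE17 (adjusted p = 0.301) and -1.98 ± 0.87 in EHE17 against EHE6 (adjusted p = 0.728). The first passed under DESeq2 (-4.42, adjusted p = 0.000157), with no low-count filter (adjusted p = 0.0328) and without EHE6 replicate 3 (-4.85, adjusted p = 0.0258). Within the second set it was -2.35 (adjusted p = 0.121), and EHE26 against EHE17 there was -0.06. EHE17 against EHE6 was nearly the same in both sets, -1.95 in the first and -2.29 in the second.

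RNA for P-selectin, the rolling receptor stored beside von Willebrand factor, was abundant in every line. Selp (ENSMUSG00000026580, chr1:164115264-164150026, plus strand) stood at 239.9, 309.7 and 224 CPM in EHE6, at 239.8, 217 and 35.5 CPM in EHE17 and at 178 and 436 CPM in EHE26. One library stood apart, EHE17 replicate 3, which held 6.44 times less than the mean of the other EHE17 libraries; the 3 lines otherwise overlapped. The means were 258 ± 45.7, 164 ± 112 and 307 ± 183 CPM (SD, n = 3, 3 and 2). The log2 fold changes were -0.65 ± 0.64 for EHE17 against EHE6 (edgeR, adjusted p = 1), 0.25 ± 0.71 for EHE26 against EHE6 (adjusted p = 0.906) and 0.91 ± 0.71 for EHE26 against EHE17 (adjusted p = 0.536). Selp carries a pair of annotated genes on its opposite strand, Gm16587 and Gm16548, at no more than 0.671 and 0.758 CPM; whether the counts kept the strand is not given in the sources used here.

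E-selectin, made by endothelium after cytokine exposure, followed another pattern than its neighbour P-selectin. Sele (ENSMUSG00000026582, chr1:164048234-164057677, plus strand) ends 57.6 kb before Selp begins. It stood at 19.7, 28.4 and 182 CPM in EHE6, at 37.8, 17.8 and 34.6 CPM in EHE17 and at 48.8 and 96.7 CPM in EHE26. EHE6 replicate 3 was 7.56 times the mean of the other EHE6 libraries, and both EHE26 libraries lay above all of EHE17, the nearest by 1.29 times. The means were 76.6 ± 91.2, 30.0 ± 10.7 and 72.7 ± 33.9 CPM (SD, n = 3, 3 and 2).

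The Sele log2 fold changes were -1.35 ± 0.81 in EHE17 against EHE6 (edgeR, adjusted p = 0.884), -0.08 ± 0.90 in EHE26 against EHE6 (adjusted p = 0.980) and 1.28 ± 0.88 in EHE26 against EHE17 (adjusted p = 0.483). Without EHE6 replicate 3 the first became 0.32 and the second 1.60, so that both signs turned. The second, whose standard error exceeds its size, also turned sign with the replicate block. Per length, Selp exceeded Sele 8.04, 7.19 and 0.812 times in the EHE6 libraries, 4.19, 8.05 and 0.676 times in EHE17 and 2.41 and 2.98 times in EHE26. Selp led in 6 of 8 libraries and Sele led in replicate 3 of EHE6 and of EHE17, through a high Sele in the one and a low Selp in the other. Per length of the longest coding transcript, Selp is 1.28 times as high and Sele unchanged. On that length the 2 genes are about even in EHE6 replicate 3, with Selp slightly ahead, and Sele still leads in EHE17 replicate 3.

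**Figure D4:**
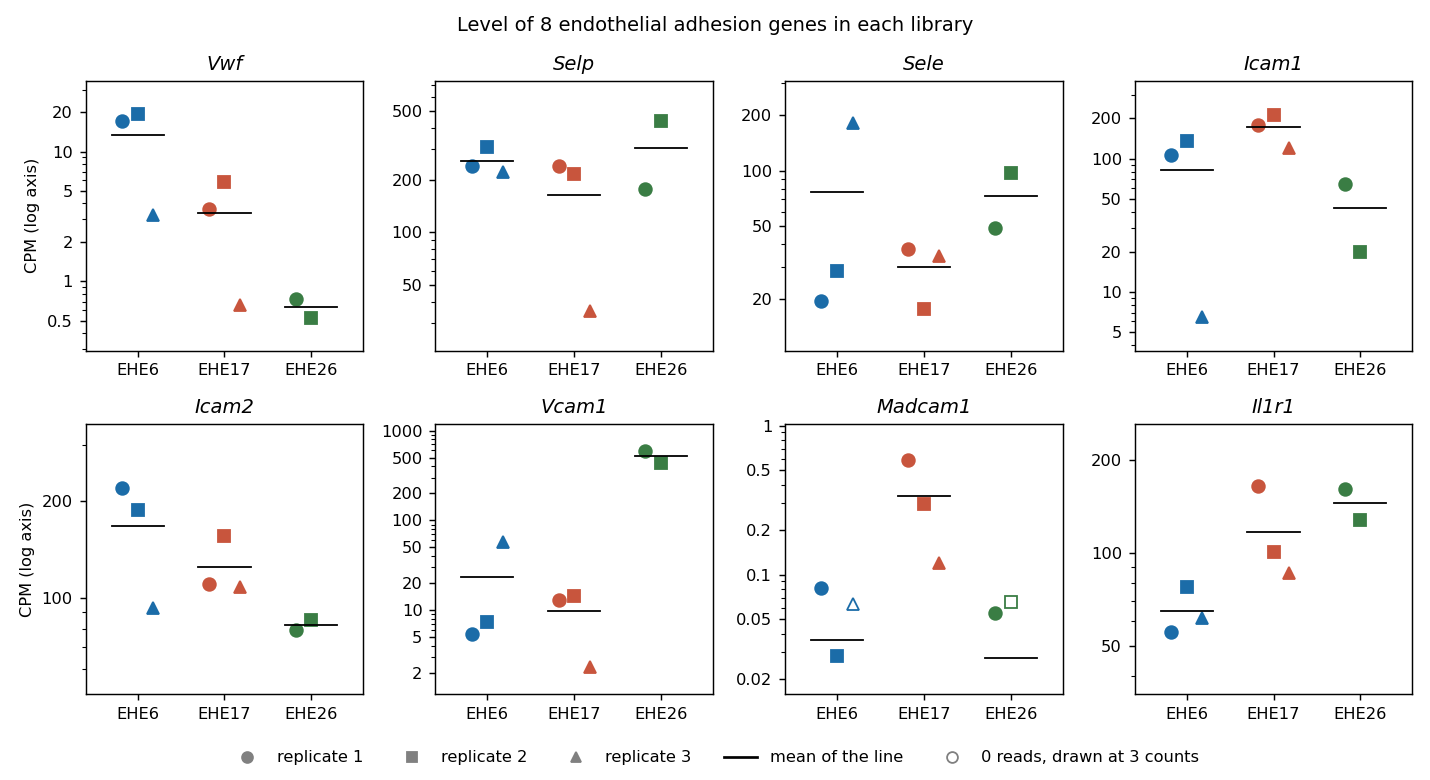
Level of each of the 8 genes in each library (CPM, log axes that differ between panels); colours part the lines, shapes give the replicate number, bars are the mean of the line and open symbols are libraries with 0 reads drawn at 3 counts. EHE6 replicate 3 is high for Sele and Vcam1 (182 and 58.0 CPM) and low for Icam1 (6.47 CPM), and EHE17 replicate 3 is low for Selp (35.5 CPM).

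ICAM-1, the cytokine-induced ligand of the leukocyte integrin LFA-1, had its highest mean in EHE17. Icam1 (ENSMUSG00000037405, chr9:21015985-21028817, plus strand) stood at 107 and 135 CPM in EHE6 replicates 1 and 2 but 6.47 CPM in replicate 3, 18.6 times under their mean. It stood at 179.7, 214 and 120.2 CPM in EHE17 and at 65.0 and 19.9 CPM in EHE26. All EHE17 libraries lay above both of EHE26, the nearest by 1.85 times, and EHE6 spanned both. The means were 82.6 ± 67.4, 171 ± 47.3 and 42.5 ± 31.9 CPM (SD, n = 3, 3 and 2).

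For Icam1 the log2 fold changes were 1.05 ± 0.90 in EHE17 against EHE6 (edgeR, adjusted p = 1), -2.01 ± 1.08 in EHE26 against EHE17 (adjusted p = 0.369) and -0.96 ± 1.03 in EHE26 against EHE6 (adjusted p = 0.704). Within the second set the last was 2.71 (adjusted p = 0.146) and EHE17 against EHE6 was 4.21 (adjusted p = 0.0665), against 0.72 in the first set. In EHE6 replicate 3, Icam1 was low where Sele and Vcam1, which share cytokine induction with it, were high. Icam4, the next gene, had no read in any library, and Icam5 beyond it was at 0.236 to 1.89 CPM.

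ICAM-2, which endothelium makes without a stimulus, had the narrowest range of the 8 genes over all libraries, close to that of Il1r1. Icam2 (ENSMUSG00000001029, chr11:106377656-106388075, minus strand) stood at 220.3, 188 and 92.8 CPM in EHE6, at 110.4, 156 and 108 CPM in EHE17 and at 79.1 and 84.9 CPM in EHE26. Its lowest and highest library differed 2.79-fold, against 2.99-fold for Il1r1. Within EHE6 Il1r1 varied less, 1.40-fold against 2.37-fold for Icam2. Within EHE17 and EHE26 Icam2 varied less, 1.45-fold and 1.07-fold against 1.92-fold and 1.26-fold for Il1r1. Both EHE26 libraries were below all others, but the nearest EHE6 library was only 1.09 times higher and the nearest EHE17 library 1.27 times. The log2 fold changes were -1.03 ± 0.39 in EHE26 against EHE6 (edgeR, adjusted p = 0.285), -0.61 ± 0.38 in EHE26 against EHE17 (adjusted p = 0.445) and -0.42 ± 0.34 in EHE17 against EHE6 (adjusted p = 0.983). The first passed without EHE6 replicate 3 (-1.32, adjusted p = 0.0300) and was -0.18 within the second set.

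MAdCAM-1, the vessel address for gut-homing lymphocytes, was close to absent. Madcam1 (ENSMUSG00000020310, chr10:79664559-79668537, plus strand) had 6, 2 and 0 reads in EHE6, 47, 27 and 6 in EHE17 and 3 and 0 in EHE26, which is 0.584 CPM at the most. A library with 0 reads allows up to 3 counts, 0.0630 CPM in EHE6 replicate 3 and 0.0658 CPM in EHE26 replicate 2, by counting error alone. EHE17 had the higher values, and neither of its comparisons passed (edgeR, adjusted p = 0.715 against EHE6 and 0.321 for EHE26 against EHE17).

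The interleukin-1 receptor, through which endothelium senses IL-1, had its lowest levels in EHE6. Il1r1 (ENSMUSG00000026072, chr1:40225080-40317257, plus strand) stood at 55.3, 77.6 and 61.4 CPM in EHE6, at 165, 100.8 and 86.1 CPM in EHE17 and at 162 and 128 CPM in EHE26. No EHE6 library reached any library of the other lines, the gap being 1.11 times to EHE17 and 1.65 times to EHE26, and EHE17 and EHE26 overlapped. The means were 64.8 ± 11.5, 117 ± 42.1 and 145 ± 23.8 CPM (SD, n = 3, 3 and 2). Il1r1 differed by 1.16 ± 0.33 on the log2 scale in EHE26 against EHE6 (edgeR, adjusted p = 0.173), 0.86 ± 0.30 in EHE17 against EHE6 (adjusted p = 0.578) and 0.30 ± 0.33 in EHE26 against EHE17 (adjusted p = 0.661).

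DESeq2 called Il1r1 in EHE26 against EHE6 (1.14, adjusted p = 0.0448), and within the second set the difference was 1.24 (adjusted p = 0.0848). Its neighbours on chromosome 1 were mostly silent: the decoy receptor Il1r2 reached 0.0621 CPM, the IL-33 receptor Il1rl1 0.0443 CPM and Il18r1 0.0564 CPM. Il1rl2, a receptor for IL-36, ran from 0.361 to 19.1 CPM and Il18rap from 0.258 to 9.64 CPM. The ligands Il1a and Il1b were at no more than 0.155 and 0.0886 CPM. Il1rap, the partner chain that Il1r1 needs to signal, stood at 34.3, 42.7 and 11.01 CPM in EHE6, at 36.1, 17.8 and 40.8 CPM in EHE17 and at 43.0 and 70.7 CPM in EHE26, with 0.96 ± 0.58 in EHE26 against EHE6 (log2, adjusted p = 0.453).

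Of the genes that act with these 8, listed by role, few passed the test. Counts are given in the order EHE17 against EHE6, EHE26 against EHE6 and EHE26 against EHE17, and are to be read against 6.9%, 15.9% and 16.6% of all genes at an unadjusted p under 0.05 and 2.1%, 8.39% and 8.92% called by DESeq2. In the list of selectin ligands and other endothelial adhesion molecules, 18 of 22 were tested and 0 were called in EHE17 against EHE6, 1 in EHE26 against EHE6 and 2 in EHE26 against EHE17, all higher in EHE26, with medians of -0.52, -0.08 and 0.05 on the log2 scale. At an unadjusted p under 0.05 there were 4, 6 and 5 of the 18, and DESeq2 called 2, 4 and 4. Cd34, a sialomucin of endothelial and blood stem cells, stood at 461 and 357 CPM in EHE26, at 55.6, 47.6 and 92.7 CPM in EHE6 and at 13.7, 22.9 and 16.7 CPM in EHE17. It rose by 2.65 ± 0.36 against EHE6 (edgeR, adjusted p = 0.0168) and by 4.53 ± 0.39 against EHE17 (adjusted p = 0.00779). The Cd34 call against EHE6 was lost without EHE6 replicate 1 or 2 or either EHE26 library (adjusted p = 0.0736 to 0.118), and that against EHE17 without EHE17 replicate 1 or 2 (adjusted p = 0.0572 and 0.0508). Jam2, a junctional adhesion molecule, stood at 125 and 85.4 CPM in EHE26, at 26.7, 32.3 and 62.0 CPM in EHE6 and at 7.23, 3.98 and 11.3 CPM in EHE17. It rose by 3.81 ± 0.53 in EHE26 against EHE17 (adjusted p = 0.0202; 0.0885 to 0.130 without EHE17 replicate 1 or 2 or either EHE26 library), and both genes thus ordered the lines EHE26, EHE6, EHE17 with no overlap. Pecam1, the junction molecule through which leukocytes pass, ranged only from 1179 to 1675 CPM in all 8 libraries. Mcam, an adhesion molecule of vessel walls, was at 1481, 1994 and 78.8 CPM in EHE6 and at 51.4 to 581 CPM in the other lines, with no call (-3.16 ± 1.29 in EHE26 against EHE6, adjusted p = 0.307).

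None of the 27 Weibel-Palade body cargo and exocytosis genes was called in any comparison by edgeR, with 4, 6 and 4 at an unadjusted p under 0.05 and medians of -0.03, -0.03 and 0.09. DESeq2 called 0, 4 and 4 of them. Angpt2, a Tie2 ligand stored in these granules, was at 632, 504 and 30.9 CPM in EHE6, at 1694, 1623 and 2503 CPM in EHE17 and at 174 and 33.2 CPM in EHE26. EHE17 held more of it than every other library, where Vwf was higher in EHE6, with 2.32 ± 0.99 in EHE17 against EHE6 (adjusted p = 0.715) and -4.23 ± 1.28 in EHE26 against EHE17 (adjusted p = 0.181). Lgals3bp, a galectin-binding cargo protein, was at 838 and 1179.6 CPM in EHE26 and at 36.2 to 314 CPM elsewhere (3.53 ± 0.66 against EHE6, adjusted p = 0.0535). Cd63, a membrane protein of the granule, ranged from 545 to 1364 CPM with no call.

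In the list of von Willebrand factor partners and coagulation genes, 22 of 23 were tested and the single call was Mmrn1, lower in EHE26 than in EHE17; the medians were 0.41, -0.17 and -0.49. At an unadjusted p under 0.05 there were 5, 4 and 10 of the 22, and DESeq2 called 1, 2 and 5. Mmrn1, a large multimeric protein of endothelium and platelets, stood at 60.8, 77.7 and 143 CPM in EHE17, at 3.26, 4.11 and 0.294 CPM in EHE6 and at 0.534 and 0.154 CPM in EHE26. It fell by 8.07 ± 1.34 in EHE26 against EHE17 (edgeR, adjusted p = 0.0381), a call kept without EHE6 replicate 3 and lost without any 1 of the other 7 libraries (adjusted p = 0.0614 to 0.287). F8, which encodes the coagulation factor that circulates bound to von Willebrand factor, was at 73.3, 127 and 5.001 CPM in EHE6, at 326, 191 and 143 CPM in EHE17 and at 32.0 and 5.66 CPM in EHE26. The F8 mean was thus lowest in EHE26, as that of Vwf was, but highest in EHE17, where Vwf was intermediate. By edgeR no F8 comparison passed (adjusted p = 0.884, 0.484 and 0.251 for EHE17 against EHE6, EHE26 against EHE6 and EHE26 against EHE17).

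IL-1 and TNF receptors and their signalling genes gave no call in any comparison (28 of 34 tested; 3, 4 and 4 at an unadjusted p under 0.05 by edgeR; 2, 1 and 3 called by DESeq2), with medians of 0.02, -0.07 and -0.13. The NF-kappaB subunits Rela and Nfkb1 were at 86.9 to 196 and 103 to 323 CPM. Of the NF-kappaB feedback and inflammatory target genes, 19 of 24 were tested and the single call was Cx3cl1, higher in EHE26 than in EHE17; the medians were 0.33, 0.32 and 0.15. At an unadjusted p under 0.05 there were 4, 4 and 5, and DESeq2 called 2, 3 and 3. Cx3cl1, a membrane-bound chemokine that catches leukocytes, stood at 790.1 and 618 CPM in EHE26, at 51.0, 67.7 and 180.5 CPM in EHE6 and at 26.4, 16.2 and 14.7 CPM in EHE17. It rose by 5.21 ± 0.60 in EHE26 against EHE17 (adjusted p = 0.0107; 0.0559 to 0.0806 without EHE17 replicate 1 or 2 or either EHE26 library), with 2.82 ± 0.55 against EHE6 (adjusted p = 0.0595). Csf1, a macrophage growth factor, was at 686 and 736 CPM in EHE26, 27.2, 34.8 and 235 CPM in EHE6 and 68.7 to 86.7 CPM in EHE17, with no call (2.85 ± 0.84 against EHE6, adjusted p = 0.188). As with Vcam1, both had their highest levels in EHE26 and were higher in EHE6 replicate 3 than in the other EHE6 libraries.

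Most integrin chains that these molecules bind on leukocytes were scarce. Of the 12 leukocyte counter-receptors 11 were tested and none was called by edgeR in any comparison (2, 5 and 5 at an unadjusted p under 0.05; 0, 2 and 2 called by DESeq2), with medians of -0.72, -0.82 and -0.20. Itgal, Itgam and Itgb7 were at no more than 0.576, 0.462 and 0.756 CPM, and Itga4, the alpha chain that binds VCAM-1, at 0.576 to 3.99 CPM. Itgax reached 12.5 CPM and Itgb2, the beta chain of LFA-1, 15.4 CPM. Itgb1, the beta chain of the VCAM-1 receptor and of many integrins outside leukocytes, was at 927 to 3248 CPM, and Itga9, another alpha chain that binds VCAM-1, at 1.58 to 52.4 CPM.

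Genes with the likest pattern were sought among 12056 tested genes by Pearson's r of log2 CPM over the 8 libraries, which share the 2 sets and the lines. For Vcam1 they were Vasn (0.988), Mgp (0.988) and Ryk (0.982), for Vwf Pcdhgb7 (0.991), Ccdc137 (0.986) and Cdc42ep1 (0.979), and for Icam1 Cnr2 (0.998), Exoc3l (0.996) and Ppp1r3d (0.994). Selp came closest to Cacng7 (0.982), Stk39 (0.977) and Serpine2 (0.969), and Sele to Gzf1 (0.988), Lyst (0.986) and D5Ertd579e (0.983). Icam2 came closest to Smarcd1 (0.981), Afp (0.981) and Zbed4 (0.979), Il1r1 to Sfi1 (0.947), Zfp984 (0.946) and Dnajc12 (0.943), and the scarce Madcam1 to Cntnap1 (0.936), Il27ra (0.933) and Fam71e1 (0.933). None of the 8 genes was among the 3 likest of another, and Madcam1, with a mean of 0.146 CPM, was too low to be a candidate. With 12056 candidates over 8 libraries, this does not show that the genes varied separately. Between pairs of the 8, r ran from -0.937 (Sele and Icam1) to 0.891 (Vwf and Icam2).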

How the data were processed

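The data are polyA RNA sequencing libraries of 3 mouse cell lines, made with the RNeasy Mini and NEBNext Ultra II kits, per the labels. The authors deposited raw counts per Ensembl gene; each sample's file equals its column in the series table. Reads were aligned with HISAT2 to mm10, per the submitters' processing notes; the counting tool, annotation and strand setting are not given in the sources used here. Symbols, positions and exon lengths come from GENCODE M21, which holds 55141 of the 55401 identifiers.

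Counts were scaled with TMM, filtered with filterByExpr by line and fitted on all 8 libraries (44620965 to 96237665 counts each) with line as the only term, by the quasi-likelihood F test of edgeR 4.0.16 in R 4.3.3. Adjustment (Benjamini-Hochberg) ran over 18882 genes, and calls needed an adjusted p under 0.05 with a log2 fold change of size 1 or more. The standard error is the log2 fold change divided by the root of F. RPKM is CPM per kilobase of the union of exons. A prior count of 2 went into log2 CPM for principal components and likeness. The code was tested on simulated data.

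Named genes are the 8, the called members and up to 4 most abundant members of each of 6 pathway lists, and for each of the 8 the 3 likest genes with a mean of at least 1 CPM; further receptors, ligands, neighbours and integrins were named after their values were seen. Members and lists were chosen with earlier results of these data known. Alternatives were no filter, DESeq2 1.42.0, a replicate block, the library set as a term or alone, each library left out, and, added after seeing the data, another gene length. Deviations from the line means of same-numbered EHE6 and EHE17 libraries correlated at 0.13, 0.18 and 0.57 across genes, each over the 0.1 set for taking numbers as pairs; unlike numbers of the first set correlated more (0.54 and 0.62), so the pairing of replicates 1 and 2 is uncertain. Counting intervals cover counting error only.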

Additional observations from a re-analysis of the deposited data

How the results depend on the processing

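Of 320 alternative log2 fold changes of the 8 genes, 288 kept direction and side of the threshold, 15 newly passed and 17 turned sign; the cause was not tested. Called genes numbered 27 in EHE17 against EHE6, 237 (207 higher, 30 lower) in EHE26 against EHE6 and 203 (168 higher, 35 lower) in EHE26 against EHE17. In this order they numbered 142, 547 and 745 with no filter, 397, 1585 (672 higher, 913 lower) and 1685 (693, 992) by DESeq2, 102, 356 and 319 with the set as a term, and 787, 601 and 828 in the second set alone. The first set alone gave 102 for EHE17 against EHE6. With the replicate block they numbered 33, 1459 (674 higher, 785 lower) and 1860 (918, 942). The block, whose pairing of EHE6 with EHE17 is uncertain, changed no call of the 8 genes there. EHE26 shares only numbers with the other lines (correlations of -0.11 to 0.18), and with the block Vwf passed against EHE6 (-4.89, adjusted p = 0.00631) and EHE17 (-2.81, adjusted p = 0.0210), as did Vcam1 against EHE17 (5.77, adjusted p = 0.0302). Leaving out 1 library gave 1 to 53, 65 to 1625 and 2 to 1411 called genes; the highest counts came without EHE6 replicate 3.

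Against 0 of the 8 genes called, EHE17 against EHE6 had 1 in the second set. EHE26 against EHE6 had 2 with no filter, 2 by DESeq2, 1 with the replicate block, 1 in the second set and 0 to 3 with 1 library left out. EHE26 against EHE17 had 1 with no filter, 2 with the replicate block, 1 in the second set and 0 to 1 with 1 library left out. With no filter Vcam1 was called against both lines (4.43, adjusted p = 0.0126, and 5.69, adjusted p = 0.00276).

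The 5 calls named in the gene lists kept their direction under all 13 alternatives each and lost the threshold in 2 to 7 of them, always with 1 library left out. Signs turned in EHE17 against EHE6 for Sele (0.22) and Vcam1 (1.11) in the first set and for Icam2 (0.21) in the second. In EHE26 against EHE6 they turned with the replicate block for Selp (-0.34) and Sele (1.13), with the set as a term for Icam1 (0.997) and Madcam1 (1.54), and in the second set for Icam1 (2.71) and Madcam1 (3.64). In EHE26 against EHE17 Sele turned with the set as a term (-0.080). Leaving out 1 library gave -1.81 to 0.32 for Sele and -1.71 to 0.64 for Vcam1 in EHE17 against EHE6, and -0.52 to 0.76 for Selp, -0.67 to 1.60 for Sele and -4.39 to 0.80 for Madcam1 in EHE26 against EHE6. Per length of the longest coding transcript Icam1 moved from 24.3 to 41.7 and Icam2 from 68.3 to 101 RPKM. Depth limits Madcam1 most, with at most 47 reads in a library, and Vwf had 33 reads in EHE17 replicate 3 and 40 and 24 in EHE26.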
